A study of Mus musculus with 20 samples.

Results

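The 10 genes described here are the chondrocyte transcription factors Sox5, Sox6 and Sox9 and 7 genes of the non-collagen cartilage matrix, Acan, Hapln1, Matn1, Matn3, Matn4, Comp and Chad. They were chosen by name: a probe set belonged to the group if its platform gene symbol was one of the 10, and where a gene has several probe sets the one with the highest mean stands for it. All 10 were found, each with 1 probe set, among 19936 genes. The arrays carried RNA of single limbs of 129Sv mouse embryos at embryonic day 13.5, and the series asked which limb genes are controlled by LMX1B, a LIM-homeodomain factor of dorsal limb mesenchyme. The 20 arrays were 5 wild-type forelimbs, 5 wild-type hindlimbs, 5 forelimbs of Lmx1b -/- embryos and 5 hindlimbs of Lmx1b -/- embryos, called knockouts below. No treatment was given, each group held 3 right and 2 left limbs, and arrays are named by group and by the replicate number of their title, 1 to 5 for forelimbs and 6 to 10 for hindlimbs. The mutation removes Lmx1b from every cell of the embryo. Nothing in the labels ties a limb to its embryo, and some limbs may share one, so each p-value sets a difference against the spread between arrays, part of which may be technical.

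SOX9 is the factor on which the cartilage fate depends: it acts from the condensation of limb mesenchyme onward and binds enhancers of collagen and matrix genes. SOX5 and SOX6 have no activation domain of their own and strengthen the binding of SOX9 at those enhancers. Aggrecan (Acan) is the large proteoglycan that holds water in cartilage, and link protein (Hapln1) fixes it to hyaluronan. The matrilins (Matn1, Matn3, Matn4) and COMP are adaptor proteins between collagen fibrils and proteoglycans, and COMP is made in tendon as well. Chondroadherin (Chad) is a leucine-rich repeat protein that binds chondrocytes to collagen. In the limb at this age the long bones are still cartilage models.

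Because the matrix genes moved together from limb to limb, the bases before the start of some of them are shown first. RefSeq windows of 250 bases upstream of a start, on GRCm38.p6, were at hand for 8 of the 10 genes, 14 windows in all. The windows were searched on both strands for ACAAT and ACAAAG (letters found in many SOX sites), for TATAAA (the TATA box) and for GGGCGG (the GC box), which were found in 27.7%, 16.5%, 12.4% and 32.7% of all 32851 promoter windows of this length. The windows at the outermost start of Acan (chr7:79052976-79053225, plus strand), Matn1 (chr4:130944135-130944384, plus strand), Matn3 (chr12:8947679-8947928, plus strand) and Chad (chr11:94564797-94565046, plus strand) are given 5′ to 3′, with matches in capitals, where CCGCCC is the GC box read on the other strand and neighbouring GC boxes overlap.
Acan: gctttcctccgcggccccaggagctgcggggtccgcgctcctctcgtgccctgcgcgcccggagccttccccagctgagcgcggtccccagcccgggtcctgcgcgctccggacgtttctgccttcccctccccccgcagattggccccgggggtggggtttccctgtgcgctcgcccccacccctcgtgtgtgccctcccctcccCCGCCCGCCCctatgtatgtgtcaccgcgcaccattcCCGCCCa
Matn1: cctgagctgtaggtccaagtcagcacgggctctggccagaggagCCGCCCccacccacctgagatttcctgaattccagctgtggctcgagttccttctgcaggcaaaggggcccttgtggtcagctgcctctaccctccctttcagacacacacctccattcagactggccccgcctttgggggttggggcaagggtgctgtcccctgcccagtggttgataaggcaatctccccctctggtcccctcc
Matn3: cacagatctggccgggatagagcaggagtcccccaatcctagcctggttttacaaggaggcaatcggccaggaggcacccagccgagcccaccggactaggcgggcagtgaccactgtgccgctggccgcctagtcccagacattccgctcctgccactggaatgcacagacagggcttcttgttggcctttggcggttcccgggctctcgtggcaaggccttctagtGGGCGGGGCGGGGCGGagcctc
Chad: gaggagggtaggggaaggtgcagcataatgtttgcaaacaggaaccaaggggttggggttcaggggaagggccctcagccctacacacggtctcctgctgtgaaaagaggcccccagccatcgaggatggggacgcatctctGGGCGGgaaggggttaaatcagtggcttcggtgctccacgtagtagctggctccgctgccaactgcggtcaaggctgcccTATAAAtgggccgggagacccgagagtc
Acan and Matn3 each held 3 GC boxes close to the start, Matn1 held 1 farther upstream, and Chad held 1 GC box and the one TATA box of the 4. None of the 4 windows held ACAAT or ACAAAG, which says only that these letters are not in these windows. The single windows of Sox5 and Hapln1 each held 1 ACAAT, and the 6 windows of Sox6 each held at least 1 of the SOX letters. For Matn4, not printed, the window at the outermost start held none of the letters searched, and its other window held 1 GC box. A GC box was thus not present before the outermost start of every matrix gene.

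The labels were checked against genes outside the group. Lmx1b averaged 6.30 ± 0.127 (SD, n = 5) log2 intensity in wild-type and 5.72 ± 0.0785 in knockout forelimbs, and 6.45 ± 0.0826 and 5.92 ± 0.114 in hindlimbs, a fall of 0.55 over both limb types on the log2 scale (limma, adjusted p = 2.63e-07). Tbx5, Tbx4, Pitx1 and Isl1 separated forelimbs from hindlimbs on all arrays as labelled. Col2a1, the collagen that defines cartilage, averaged between 7.90 and 8.20 log2 intensity in the 4 groups. Male limbs made up 5 of 5 wild-type forelimbs, 3 of 5 wild-type hindlimbs, 2 of 5 knockout forelimbs and 3 of 5 knockout hindlimbs.

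The clearest feature of the 10 genes was how much they varied between limbs of 1 group. The pooled SD within groups was 0.81 for Matn1 on the log2 scale, larger than that of 99.9% of genes, against a median of 0.135 over all genes. It was 0.511 for Matn3, 0.489 for Hapln1, 0.442 for Matn4, 0.427 for Sox9, 0.387 for Acan and 0.351 for Sox5, each larger than in 98.9% of genes or more. Comp (0.259), Sox6 (0.228) and Chad (0.219) varied less, though still more than 90.9% of genes or more. Comp, Acan and Chad were the weakest of the 10, with means of 4.85, 5.06 and 5.08 log2 intensity, near the array medians of 4.84 to 4.99. At such levels background may narrow differences, which was not tested. Among genes within 0.5 log2 of the same mean level the ranks were alike, from 91% for Chad to 99.8% for Matn1. One SD of Matn1 was thus a 1.75-fold difference between limbs of the same genotype and limb type, and one of Sox9 a 1.34-fold difference. An array carries bulk RNA of a whole limb, so fewer chondrocytes and less RNA per chondrocyte cannot be told apart.

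Matn1, the most variable of the matrix genes, read 7.06, 6.99, 5.97, 6.67 and 5.10 log2 intensity in wild-type forelimbs 1 to 5 and 6.07, 4.84, 6.52, 5.05 and 6.79 in knockout forelimbs 1 to 5. In hindlimbs 6 to 10 it read 5.32, 6.31, 4.73, 4.76 and 6.12 in wild type and 4.60, 6.65, 5.43, 5.59 and 4.85 in knockouts. High and low limbs were present in every group, and all 4 groups overlapped. Sox9, the master regulator of the group, read 8.45, 8.41, 7.95, 7.99 and 7.04 in wild-type forelimbs and 8.16, 7.65, 7.89, 8.56 and 8.28 in knockout forelimbs. In hindlimbs it read 8.35, 8.43, 8.18, 8.56 and 8.30 in wild type and 7.51, 8.63, 8.61, 8.76 and 8.57 in knockouts. Wild-type forelimb 5, at 7.04, lay far below all other arrays. Knockout hindlimb 6, at 7.51, lay far below the other hindlimbs but close to knockout forelimb 2, at 7.65. Without wild-type forelimb 5 and knockout hindlimb 6, Sox9 lay between 7.65 and 8.76 on all arrays.

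**Figure D1:**
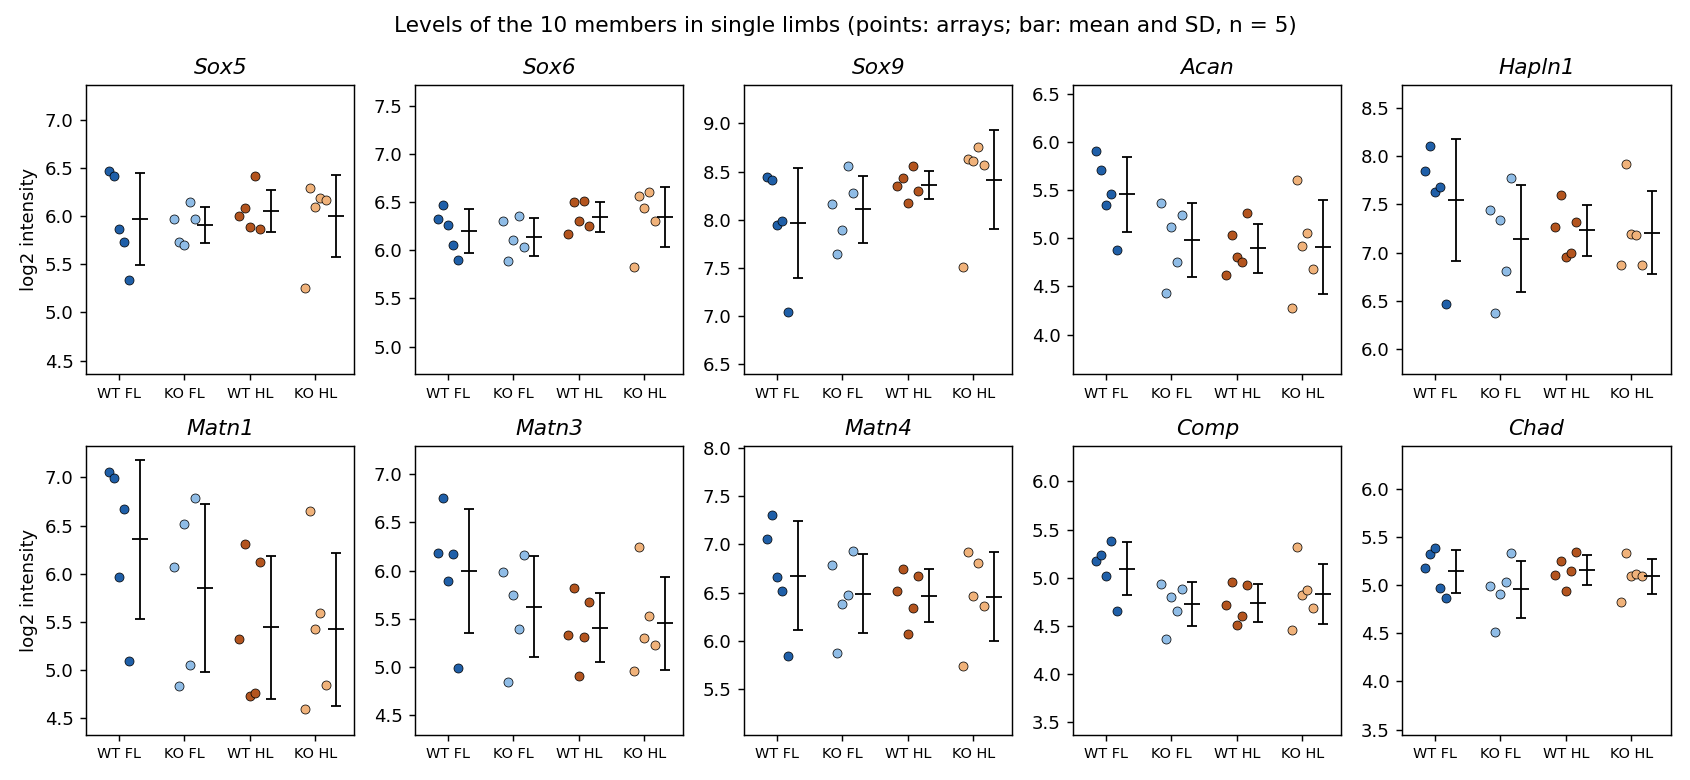
Log2 intensity of each of the 10 genes (vertical axis, 3 log2 units in every panel) in single limbs, by group (WT, wild type; KO, knockout; FL, forelimb; HL, hindlimb); points are arrays, and the bar beside them is the mean and SD of 5 arrays. The groups overlap for every gene, Matn1 has the widest spread, and knockout hindlimb 6 lies at 7.51 for Sox9 and 5.25 for Sox5, below the other 4 of its group.

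Some limbs were low or high for the whole group of genes, and in the others the genes lay on both sides of their group means. In 4 arrays all 10 genes lay below the mean of their group: wild-type forelimb 5 (on average 0.73 log2 below), knockout hindlimb 6 (0.58), knockout forelimb 2 (0.54) and wild-type hindlimb 8 (0.28). In 5 arrays all 10 lay above it: wild-type forelimbs 1 and 2, wild-type hindlimb 7, knockout forelimb 1 and knockout hindlimb 7, by 0.21 to 0.53 on average. The SOX and the matrix genes did not always move by the same amount. In knockout hindlimb 6 the 3 SOX genes lay 0.72 below the group mean and the 7 matrix genes 0.52 below, whereas in knockout forelimb 2 the SOX genes lay 0.29 below and the matrix genes 0.65 below. In knockout forelimb 4 they went apart, the SOX genes 0.31 above the group mean and the matrix genes 0.23 below it, with Sox9 0.45 above and Matn1 0.80 below. Wild-type hindlimb 9 showed the same split, with the SOX genes 0.24 above and the matrix genes 0.21 below. The reverse split was present as well. In wild-type hindlimb 10 the SOX genes lay 0.11 below and the matrix genes 0.28 above. In knockout forelimb 3 they lay 0.15 below and 0.15 above.

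**Figure D2:**
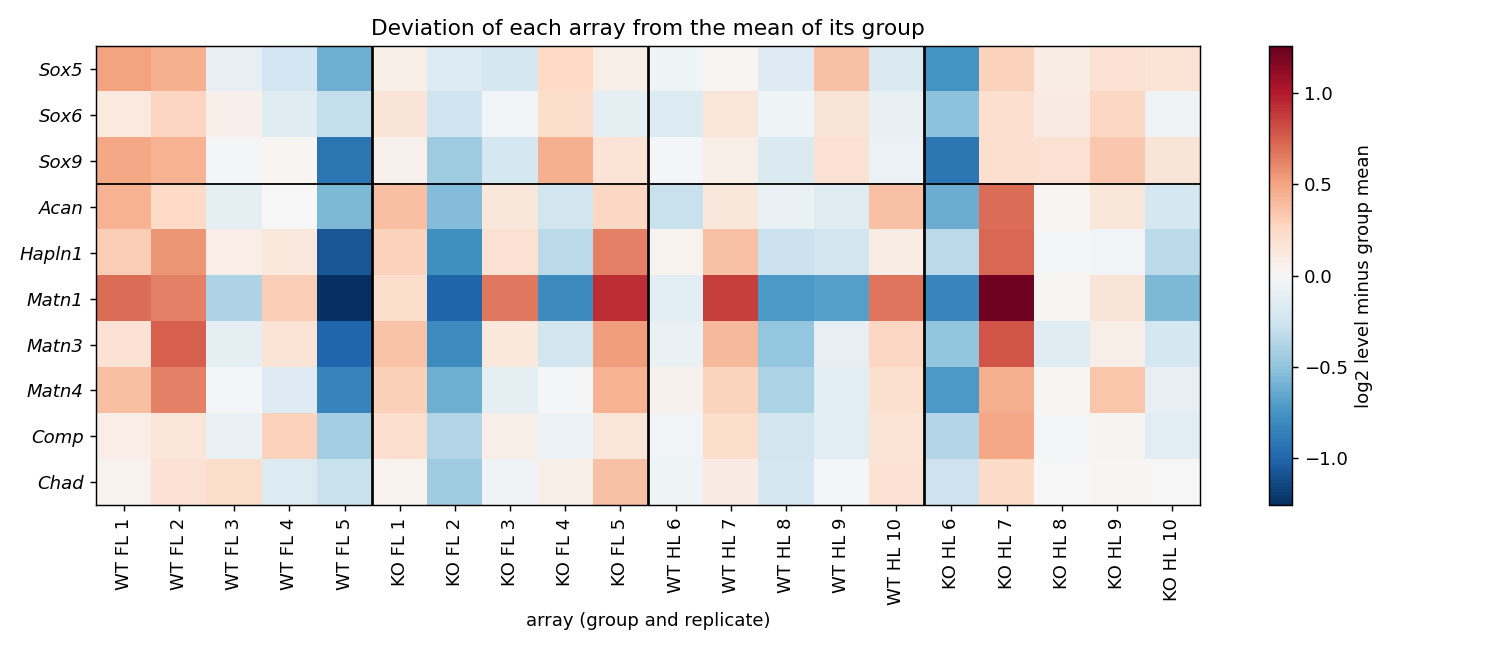
Deviation of each gene (rows) on each array (columns, named by group and replicate number) from the mean of its group, on the log2 scale; blue is below and red above the group mean, thick vertical lines separate the groups, and the horizontal line separates SOX from matrix genes. Wild-type forelimb 5, knockout forelimb 2, wild-type hindlimb 8 and knockout hindlimb 6 are below their group mean for all 10 genes, while knockout forelimb 4 and wild-type hindlimb 9 are high for SOX genes and low for Matn1.

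Across the 20 deviations from group means, the genes fell into a SOX set and a matrix set, which is a description of these arrays and carries no p-value. Pearson's r was 0.86 to 0.93 for the 3 pairs of SOX genes and 0.69 to 0.96, with a median of 0.88, for the 21 pairs of matrix genes. For the 21 pairs of a SOX and a matrix gene it was 0.44 to 0.84, with a median of 0.60. The points of a pair share an array, and so share its RNA and its scaling. After leaving out, for each pair, the 2 arrays farthest from the median of the first gene, the SOX pairs ran from 0.74 to 0.86 and the matrix pairs from 0.61 to 0.94, but the mixed pairs only from 0.15 to 0.70, with a median of 0.38. The likeness between SOX and matrix genes was thus the one that shrank most. In the mixed pairs, however, the first gene was always the SOX gene, so the arrays left out were those farthest for SOX. The kinds of pair were therefore not trimmed alike, and the sizes of the fall cannot be compared strictly. Hapln1 and Matn3, link protein and an adaptor, were the closest pair (0.96), and Sox9 and Acan, a factor and a gene known to be bound by it, reached 0.66, or 0.41 without the 2 farthest arrays. Matn4, the matrilin that is also made outside cartilage, was the matrix gene closest to all 3 SOX genes, at 0.78 with Sox5, 0.76 with Sox6 and 0.84 with Sox9.

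**Figure D3:**
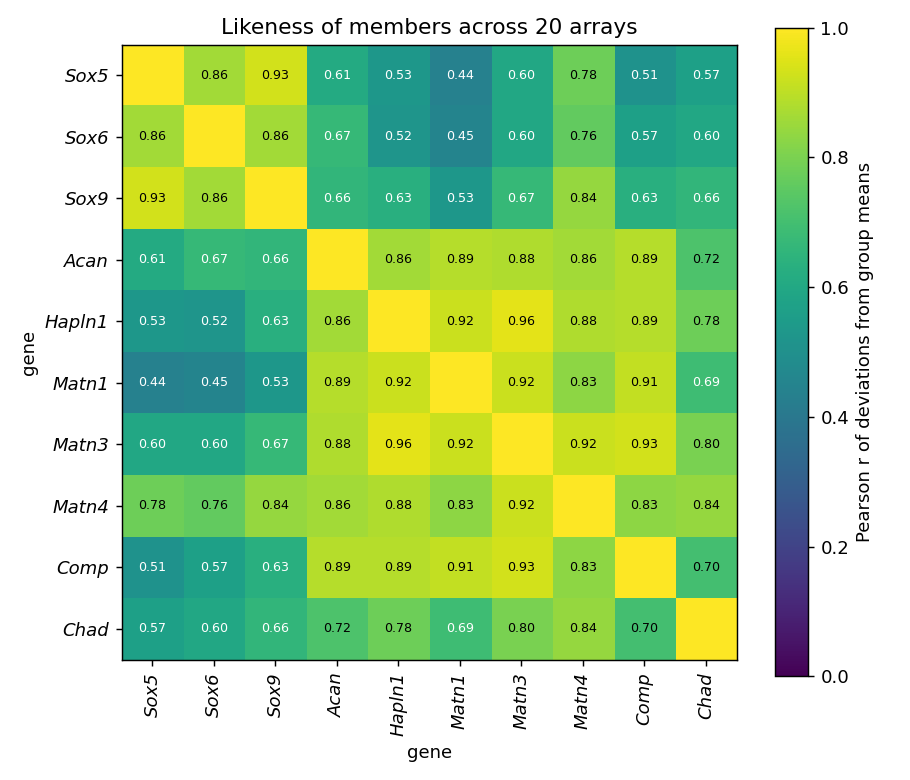
Pearson's r between the deviations of 2 genes from their group means over 20 arrays, for all pairs of the 10 genes (rows and columns), on a colour scale from 0 to 1. The block of 3 SOX genes is at 0.86 to 0.93 and the block of 7 matrix genes at 0.69 to 0.96, while pairs across the blocks are at 0.44 to 0.84.

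The genes outside the group that resembled each of its members most were named by the same measure, among the 9967 or 9968 genes with a mean level at or above the median. Sox9 was closest to Wwp2 (r = 0.97), a ubiquitin ligase gene that hosts a microRNA of cartilage, to Foxc1 (0.95), a forkhead factor, and to Papss2 (0.94), which makes the sulphate donor for proteoglycans. Sox5 was closest to Foxc1 (0.94), Wwp2 and Sox9 (both 0.93). Sox6 had Ric8b, Ypel2 and Bcl2 as its nearest genes (0.88 to 0.89), none of them a gene of the cartilage lists. The matrix genes had other neighbours. Prelp, a small leucine-rich proteoglycan of cartilage, was among the 3 nearest genes of Acan (0.91), Hapln1 (0.93), Matn3 (0.94), Matn4 (0.95), Comp (0.90) and Chad (0.86). Matn1 was closest to Cnmd (0.92), which encodes chondromodulin, and Matn4 was as close to Col9a1 (0.95) as to Prelp. An r of 0.8 or more was reached by 0.0401% of the genes compared for Chad and by 1.02% for Sox9.

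Lists of other genes were set beside the SOX and the matrix means in the same way. The 2 arrays left out were those farthest for the SOX mean or for the matrix mean, and so could differ. The mean deviation of 7 cartilage collagen genes had an r of 0.88 with the mean of the SOX genes and 0.90 with that of the matrix genes, or 0.73 and 0.86 without the 2 farthest arrays. For 13 chondrogenic signals and regulators these were 0.89 and 0.75, or 0.79 and 0.58. Likeness was not confined to cartilage lists: 8 genes of developing joints had 0.69 and 0.82, and the 4 limb-type genes 0.72 and 0.49. Without the 2 farthest arrays these were 0.48 and 0.68, and 0.45 and 0.19. The mean of 14 other chondrocyte genes followed the matrix genes more closely (0.97) than the SOX genes (0.69, or 0.45 without the 2 farthest arrays). The 7 genes measured of prehypertrophic and hypertrophic cartilage, the zone where chondrocytes stop dividing and enlarge, followed the matrix genes (0.85) and hardly the SOX genes (0.33). Epidermal genes went the other way: the mean of 8 (Krt5, Krt8, Krt14, Krt15, Krt18, Trp63, Epcam and Cdh1) had an r of -0.83 with the SOX genes (-0.71 without the 2 farthest arrays) and -0.34 with the matrix genes. All 8 were measured, and their mean ran from 7.37 to 7.83 log2 intensity in wild-type forelimbs, 7.22 to 7.56 in wild-type hindlimbs, 7.11 to 7.81 in knockout forelimbs and 6.89 to 7.93 in knockout hindlimbs. The highest of all 20 arrays was knockout hindlimb 6, the limb lowest for Sox5, and its epidermal mean lay 0.64 above that of its group. The limb-type estimates of the 3 SOX genes with the epidermal mean held equal are given below.

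Whether loss of Lmx1b changed these genes was asked first in forelimbs, where the estimates of all 7 matrix genes were below 0 and none passed the test. Acan read 5.90, 5.71, 5.34, 5.46 and 4.88 log2 intensity in wild-type forelimbs and 5.36, 4.43, 5.12, 4.75 and 5.24 in knockout forelimbs, so the groups overlapped. The difference was -0.48 (SE 0.216, 95% interval -0.93 to -0.03, limma adjusted p = 0.339). Comp read 5.17, 5.24, 5.02, 5.38 and 4.66 in wild-type and 4.94, 4.36, 4.80, 4.66 and 4.88 in knockout forelimbs, again overlapping, with a difference of -0.37 (SE 0.147, adjusted p = 0.274). For Matn1, Hapln1 and Matn3 the differences were -0.50 (SE 0.445), -0.40 (SE 0.271) and -0.37 (SE 0.283). These 3 moved with single limbs: without wild-type forelimb 5 they were -0.82, -0.67 and -0.62, and without knockout forelimb 2 they were -0.25, -0.21 and -0.17. The SOX genes differed by -0.06 for Sox5, -0.06 for Sox6 and 0.14 for Sox9, with 95% intervals that reached at most 0.63 on either side. Of the 10 genes, 0 passed the adjusted threshold of 0.05 in limma, where 1.27% of all genes did, and 2 had an unadjusted p under 0.05 (Acan and Comp), where 13.2% of all genes did. The median difference was -0.28 over the 10 genes and 0.00 over all genes. Since all wild-type forelimbs were male, the values among male arrays alone are given too, with only 2 knockout forelimbs. There the differences were -0.16 for Acan (SE 0.291) and -0.19 for Comp (SE 0.197). Those of Hapln1, Matn1, Matn3 and Matn4 lay between 0.06 and 0.18, above 0, with SEs of 0.326 to 0.533. The male knockout forelimbs were 1 and 5, whose matrix genes lay 0.26 and 0.47 above the mean of their group. The part of sex in the forelimb differences was not tested.

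In hindlimbs the knockouts and wild types were closer still. The differences ran from -0.07 (Chad) to 0.09 (Comp), with a median of 0.00. In limma 0 of 10 genes passed the adjusted threshold, where 0.231% of all genes did. An unadjusted p under 0.05 was also reached by 0 of 10, where 5.75% of all genes did. For Sox9, whose mean was 8.37 ± 0.141 (SD, n = 5) in wild type and 8.42 ± 0.513 in knockouts, the 95% interval was -0.44 to 0.54. For Matn1 it was -0.95 to 0.90, the widest of the 10. Over both limb types the differences ran from -0.26 (Matn1) to 0.10 (Sox9), and 9 of 10 were below 0. In limma 0 of 10 passed the adjusted threshold, where 2.04% of all genes did. An unadjusted p under 0.05 was also reached by 0 of 10, where 14.7% of all genes did. The narrowest intervals were those of Chad, -0.31 to 0.06, and of Sox6, -0.22 to 0.16. No gene of the group had arrays that did not overlap between genotypes in forelimbs, where 2.53% of all genes had such arrays, or in hindlimbs, where 1.49% had.

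The genotype effect itself was compared between limb types. Comp had the smallest p: its effect in hindlimbs exceeded that in forelimbs by 0.46 (SE 0.208, 95% interval 0.03 to 0.89, limma adjusted p = 1). Its 4 group means were 5.10 in wild-type forelimbs, 4.83 in knockout hindlimbs, 4.74 in wild-type hindlimbs and 4.73 in knockout forelimbs, the last 3 within 1 SD of each other. The other 9 genes had differences of -0.09 to 0.49, with a median over the 10 of 0.28 against -0.01 over all genes. In this comparison 0 of 10 passed the adjusted threshold in limma, where 0.0201% of all genes did. Of the 10, 1 had an unadjusted p under 0.05, where 3.63% of all genes did. Between left and right limbs the differences ran from -0.26 for Matn1 to 0.07 for Sox9. There 0 of 10 genes passed in limma, at the adjusted or the unadjusted threshold. Of all genes 0% passed the adjusted and 9.48% the unadjusted one.

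**Figure D4:**
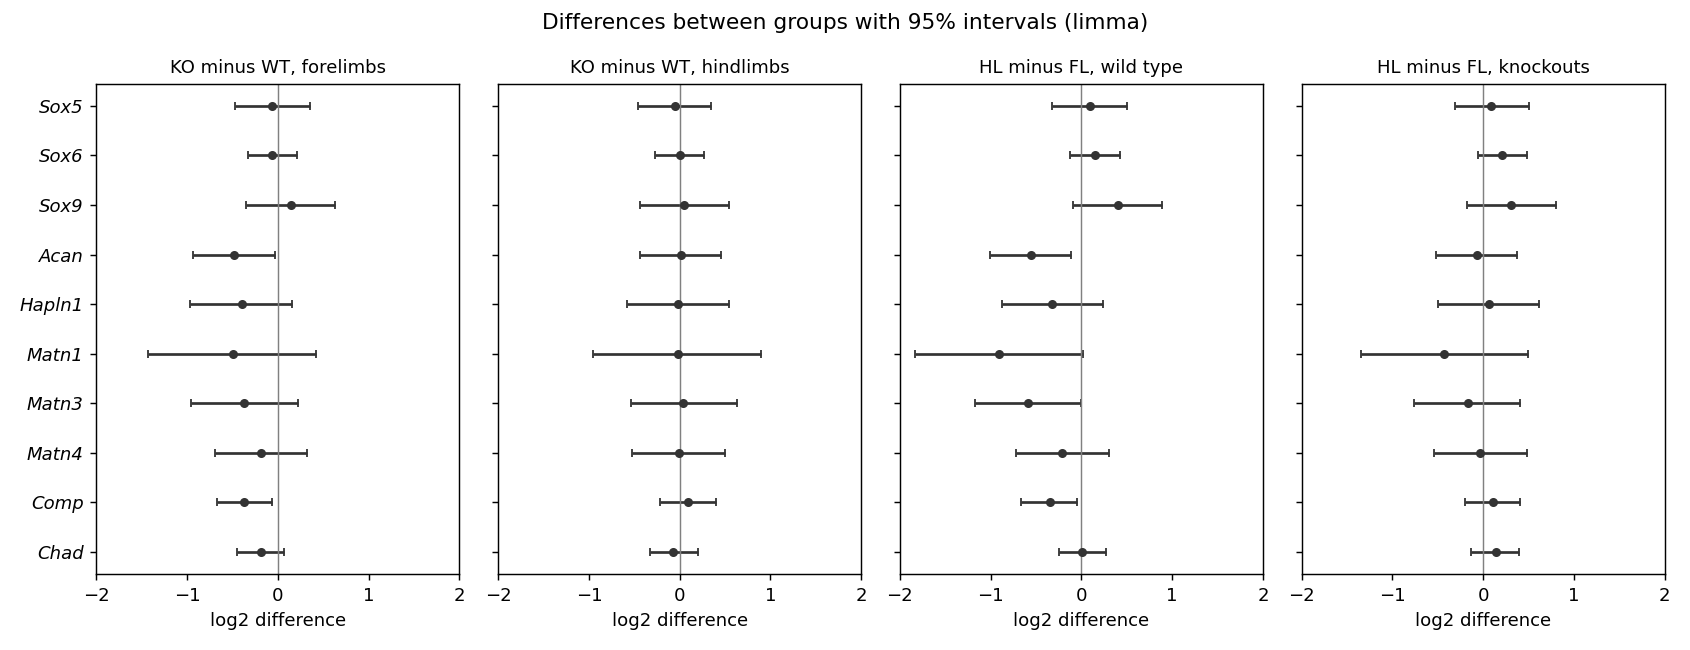
Log2 difference (horizontal axis) of each gene between knockout and wild type in forelimbs and in hindlimbs, and between hindlimbs and forelimbs in wild type and in knockouts; points are limma estimates and lines their 95% intervals. Acan and Comp have intervals just below 0 in the forelimb genotype panel and in the wild-type limb panel, and Matn1 has the widest interval in every panel.

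Between hindlimbs and forelimbs none of the 10 genes passed the test. The estimate for Sox9 was 0.35 over both genotypes, hindlimb minus forelimb (SE 0.168, 95% interval 0.01 to 0.70, limma adjusted p = 0.231), and the estimates were 0.18 (SE 0.0925) for Sox6 and 0.09 (SE 0.139) for Sox5. Those of 3 matrix genes were -0.67 for Matn1 (SE 0.315, adjusted p = 0.226), -0.38 for Matn3 (SE 0.2, adjusted p = 0.284) and -0.32 for Acan (SE 0.153, adjusted p = 0.236). Matn4, Hapln1, Comp and Chad lay between -0.13 and 0.07. Of the 10 genes 0 passed the adjusted threshold, where 5.96% of all genes did, and 3 had an unadjusted p under 0.05 (Sox9, Acan and Matn1), where 21% of all genes did. In wild type, 0 of 10 passed in limma, where 3.26% of all genes did. There 2 of 10, Acan (-0.56) and Comp (-0.35), had an unadjusted p under 0.05, where 16.5% of all genes did. In knockouts 0 of 10 passed in limma, at the adjusted or the unadjusted threshold. Of all genes 0.617% passed the adjusted and 9.85% the unadjusted one. No gene had arrays that did not overlap between limb types, where 4.98% of all genes in wild type and 1.73% in knockouts had.

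The limb-type estimate for Sox9 moved with the arrays and covariates used. Without knockout hindlimb 6 it was 0.47 (adjusted p = 0.0564), without wild-type forelimb 5 it was 0.24 (adjusted p = 0.361), and with the epidermal mean as a covariate it was 0.06 (SE 0.106, adjusted p = 0.838). With that covariate Sox5 was at -0.14 (SE 0.0972) and Sox6 at 0.04 (SE 0.0746). Skeletal muscle genes differed strongly between limb types, with 19 of 20 lower in hindlimbs (median -0.50). Their mean was 7.99 ± 0.221 log2 intensity in wild-type forelimbs (SD, n = 5) and 7.29 ± 0.185 in wild-type hindlimbs, 7.56 ± 0.168 in knockout forelimbs and 7.21 ± 0.151 in knockout hindlimbs. With this mean as a covariate 32 of all genes passed between limb types in place of 1188, Sox9 was at -0.12 with a wider SE of 0.299 (adjusted p = 0.991), and Sox5 at -0.38 (SE 0.239). Of 8 epidermal genes 1 was lower in hindlimbs (Krt15, -0.90, adjusted p = 0.000952) and 1 higher (Krt18, 0.28, adjusted p = 0.0152). Acan, Matn1 and Matn3 kept estimates below 0 in all 4 of these settings, the nearest to 0 with the muscle covariate for Acan, at -0.15 (SE 0.291), and for Matn1, at -0.27 (SE 0.599).

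Because cartilage level differed so much between limbs, the genes were also compared at an equal level of the 7 cartilage collagens (Col2a1, Col9a1, Col9a2, Col9a3, Col11a1, Col11a2 and Col27a1), whose mean on each array was added to the model. This comparison was chosen after seeing the data. The collagens themselves did not pass between limb types (0 of 7, median 0.01). At equal collagen level the spread narrowed, and 4 of the 10 genes passed between limb types over both genotypes, where 6.63% of all genes did. Sox9 was higher in hindlimbs by 0.34 (SE 0.0888, limma adjusted p = 0.0257), a 1.26-fold difference. Acan was lower, with a difference of -0.33 (SE 0.0834, adjusted p = 0.0193), Matn3 had a difference of -0.40 (SE 0.0996, adjusted p = 0.0188) and Matn1 one of -0.70 (SE 0.189, adjusted p = 0.0302), a 1.62-fold difference. The 4 estimates were within 0.03 of those without the covariate, and all 4 standard errors were smaller with it.

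The call for Acan and for Matn3 held when any single array was left out. That for Sox9 was lost in 6 of the 20 cases (adjusted p between 0.0505 and 0.0545) and that for Matn1 in 7 (0.0523 to 0.0636). Without wild-type hindlimb 9, knockout forelimb 3 or knockout hindlimb 10 only 2 of the 4 genes passed. With the epidermal mean as a further covariate 0 of 10 passed (limma, 4 at an unadjusted p under 0.05). Calls among all genes fell too, to 440 from 1322 with the collagen covariate alone. Sox9 was then at 0.17 (limma adjusted p = 0.301), Acan at -0.21 (0.245), Matn1 at -0.31 (0.336) and Matn3 at -0.22 (0.247). In wild type alone, 2 of 10 genes passed at equal collagen level, where 4.2% of all genes did: Sox9 at 0.55 (SE 0.127, adjusted p = 0.0167) and Acan at -0.42 (SE 0.12, adjusted p = 0.0484). In knockouts 0 of 10 passed (limma, 3 at an unadjusted p under 0.05), where 0.707% of all genes did, with Sox9 at 0.12 (SE 0.128), Acan at -0.24 (SE 0.12) and Matn1 at -0.76 (SE 0.273). The limb-type difference at equal collagen level was also compared between genotypes. There 0 of 10 genes passed in limma, where 0.0201% of all genes did, and 1 had an unadjusted p under 0.05: the hindlimb excess of Sox9 was smaller in knockouts (difference -0.43, SE 0.183, adjusted p = 0.865). Between genotypes over both limb types 0 of 10 passed at equal collagen level (limma, 1 at an unadjusted p under 0.05), where 2.17% of all genes did. The estimate furthest from 0 was that of Sox9, 0.27 (SE 0.092, adjusted p = 0.133). In the fits at equal collagen level the share of all genes at the unadjusted threshold was not counted. The unadjusted counts there thus cannot be set against it.

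**Figure D5:**
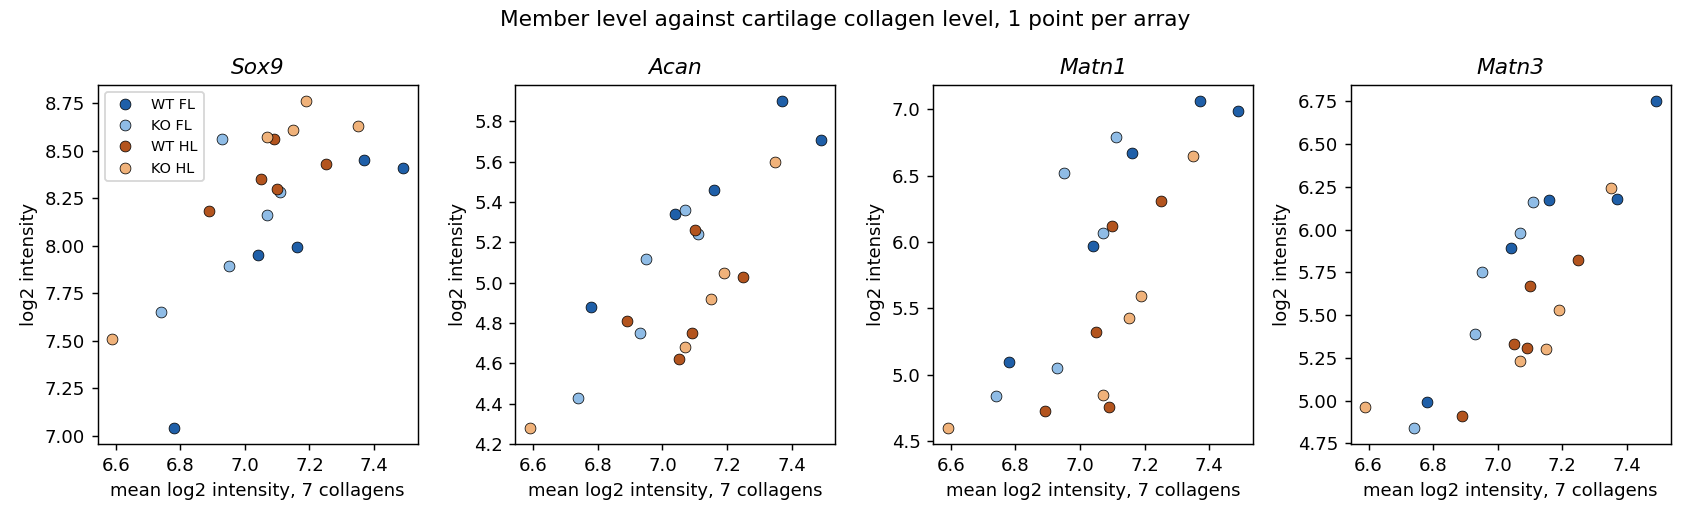
Log2 intensity of Sox9, Acan, Matn1 and Matn3 (vertical axes) against the mean log2 intensity of 7 cartilage collagen genes (horizontal axes), 1 point per array, coloured by group (WT, wild type; KO, knockout; FL, forelimb; HL, hindlimb). All 4 genes run higher where the collagens do, and most hindlimb points (brown and orange) lie above the forelimb points (blue) for Sox9 and below them for Acan, Matn1 and Matn3.

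Other genes of cartilage were counted by list, beside a share of 2.04% of all genes past the test between genotypes and 5.96% between limb types over all arrays. Between genotypes over both limb types 0 of 7 collagens, 0 of 14 other chondrocyte genes and 0 of 7 hypertrophic genes passed, with medians of -0.13, -0.10 and -0.14. Of 7 genes of perichondrium and bone-forming cells 3 fell in knockouts: Ibsp, a sialoprotein gene of bone (-1.30, SE 0.241, adjusted p = 0.00424), the phosphatase gene Alpl (-0.33, adjusted p = 0.00935) and Sp7, the osteoblast factor (-0.30, adjusted p = 0.0149). Between limb types the hypertrophic genes changed in 3 of 7, all lower in hindlimbs: Mef2c, a factor of hypertrophy (-0.45, SE 0.0745, adjusted p = 0.000708), the channel gene Panx3 (-0.67, SE 0.159, adjusted p = 0.0132) and Col10a1, the collagen of hypertrophic cartilage (-0.21, SE 0.0619, adjusted p = 0.0428). Col10a1 was weak: its group means were 4.30 to 4.65 log2 intensity, below the array medians of 4.84 to 4.99. Muscle genes had a median of -0.50 between limb types, and the part of muscle in the values of these 3 genes was not tested. Of the other chondrocyte genes 2 of 14 were lower in hindlimbs, Matn2 (-0.55, adjusted p = 0.0074), a matrilin made outside cartilage as well, and the proteoglycan gene Epyc (-1.10, adjusted p = 0.0131). Of the perichondrium and bone list 4 of 7 were lower in hindlimbs, Ibsp by most (-1.11, adjusted p = 0.00743). Among markers of embryonic stage, 2 of 6 were higher in hindlimbs, Hmga2 (0.64, adjusted p = 2.8e-05) and Lin28b (0.49, adjusted p = 0.000861). The part of developmental stage in the values of the 10 genes was not tested. Of 9 condensation genes 2 were lower in hindlimbs, Tnc (-0.47) and Ncam1 (-0.23). Of 13 chondrogenic regulators 1 was lower, Bmp4 (-0.25, adjusted p = 0.00519), a share near that of all genes.

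Relatives of the 10 genes, other members of the same families, were read as a further list. Of 17 relatives, 2 were higher and 3 lower in hindlimbs over both genotypes: Hapln2, the link protein of nerve fibres, was 1 of the former (0.21, adjusted p = 0.00482), and Thbs4 (-0.97, adjusted p = 2.25e-05), Thbs1 (-0.30, adjusted p = 0.00787) and Matn2 were the latter. Thbs4, a thrombospondin of the same subgroup as COMP and a gene of tendon, was also the 1 relative of 17 that fell in knockouts over both limb types (2 of 17 were lower in forelimbs alone), by 0.92 on the log2 scale (adjusted p = 5.03e-05), where Comp was at -0.14 (SE 0.104). Tendon genes fell in 5 of 9 between genotypes over both limb types (median -0.62), and muscle genes in 6 of 20 (median -0.28). Bmp2, a ligand that drives chondrogenesis, was the 1 regulator of 13 that rose in knockouts over both limb types (0.36, SE 0.0729, adjusted p = 0.00877).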

How the data were processed

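RNA of 20 single limbs was hybridised to Affymetrix ST arrays. The deposited values are linear intensities, 1 per probe set and array, made by the authors with RMA, per the submitters' processing notes. Not given in the sources used here: the RMA software version, the annotation and the build. Intensities ran from 1.65 to 13033, with array medians of 28.6 to 31.8, and the number of arrays limits the precision. Here log2 of the deposited intensities was taken without a pseudocount. Probe sets with 1 symbol gave 19936 genes. limma 3.58.1 in R 4.3.3 fitted 4 group means to all genes (lmFit, contrasts.fit, eBayes), with side added for left against right, and genes passed at an adjusted p (Benjamini-Hochberg) under 0.05. The fit was tested on simulated data. Likeness is Pearson's r of deviations from group means. All 10 genes are named. From 17 other lists up to 4 genes per list with the smallest p in the limb-type and genotype comparisons over all arrays could be named, plus the genes that check the labels. The genes and lists were chosen with earlier results of these data known. Alternatives covered single arrays left out, scaling, pseudocount, low values, probe sets, weights, prior, sex, muscle, shared description numbers, replicate block, side and groups fitted. Covariates for cartilage collagens and epidermis, and values relative to Sox9, were added after seeing the data. Promoter windows came from RefSeq on GRCm38.p6, and their letters were searched in Python 3.11.15.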

Additional observations from a re-analysis of the deposited data

Results flagged for a closer look

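Knockout hindlimb 6 was far below the other 4 knockout hindlimbs for 2 SOX genes. Sox5 was at 5.25 log2 intensity there, and the next lowest array of the group was at 6.09, a gap of 0.81 of the range of the group. Sox9 was at 7.51, against 8.57 for the next lowest, a gap of 0.85 of the range. A gap above 0.71 of the range sets an array of 5 apart by Dixon's test at the 95% level, and chance alone gives this in about 5% of groups. The 10 genes in 4 groups made 40 such checks, of which 2, or 5%, passed, which is the share chance gives, and both come from 1 limb and from genes that vary together. The same limb had the highest epidermal mean of its group, 7.93 log2 intensity, and the lowest collagen mean, 6.59. The cause was not tested.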

How the results depend on the processing

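In the comparisons as planned 0 of 10 genes passed, and of 299 recounts 291 gave the same count or one within 1.5 times, while 8 moved. Between limb types over both genotypes 4 genes passed with the collagen mean as a covariate and 3 with values relative to Sox9, and in wild type 2 and 1. For the values relative to Sox9, the Sox9 level of each array was subtracted from every gene. The limb-type difference of Sox9 itself thus enters every gene with its sign reversed. These values are unstable: without knockout hindlimb 6, 16622 of 19935 genes passed between limb types, against 455 with all arrays. The Sox9 difference was 0.47 without that array and 0.35 with all arrays. At equal collagen level, leaving out single arrays gave 2 to 5 of 10 genes. With the epidermal covariate added 0 of 10 passed, where 440 of all genes did, against 1322 with the collagens alone. Sox9, which passed at equal collagen level, did not pass with the muscle covariate in place of the collagens. It was then at -0.12 (SE 0.299) over both genotypes and -0.24 (SE 0.406) in wild type. Both estimates were smaller in size than their SE, so their sign is uncertain. With the replicate number of the titles as a block, 0 of the 10 genes passed in each of the 4 genotype comparisons. Each number was shared by a wild-type and a knockout array, and the deviations of such arrays correlated from -0.31 to 0.26. As these arrays differ in genotype, this cannot show which limbs of the same genotype share an embryo. Beyond the subtraction of Sox9, the cause of the shifts in count was not tested. With 5 arrays a group and this spread between limbs, the fits do not exclude differences of the sizes within the intervals given.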
